A study of Homo sapiens with 34 samples.

Results

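Genes of neurotransmitter receptors were followed across histone mark peak lists of the cell line KELLY, established from a human neuroblastoma and carrying MYCN amplification. They were the 98 protein-coding genes on chromosomes 1 to 22 and X (of 19970 in all) whose symbols mark them as receptors or receptor subunits for GABA, glycine, glutamate, acetylcholine, serotonin, dopamine or noradrenaline and adrenaline. The symbols begin with GABR, GLRA, GRIA, GRIK, GRIN, GRM, CHRN, CHRM, HTR, DRD, ADRA or ADRB. HTRA proteases, ADRM1 and GRINA, which share such letters, are not such receptors and were not counted. The 98 genes fell into 11 receptor classes, namely 19 GABA-A, 3 glycine, 4 AMPA, 5 kainate, 7 NMDA, 8 metabotropic glutamate, 16 nicotinic, 5 muscarinic, 17 serotonin, 5 dopamine and 9 adrenergic.

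The cells held a short hairpin RNA, induced by doxycycline, that targets RUNX1T1, a transcriptional co-repressor. They were given the solvent DMSO or Doxycycline for 72 h. ChIP-seq, in which chromatin fragments bound by an antibody are sequenced, covered 5 marks with 3 libraries per mark and treatment, which gave 30 peak lists. Both treatments used cells with the hairpin, so an effect of doxycycline itself cannot be told apart from that of the knockdown. Nothing in the labels said that the 3 libraries came from separate cultures, so the spread between them may be technical.

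Fast receptors are channels that open on binding the transmitter (nicotinic, GABA-A, glycine, AMPA, kainate, NMDA and the HTR3 serotonin receptors), and the others signal through G proteins. Neuroblastoma arises in the sympathoadrenal lineage, whose ganglion cells receive acetylcholine through nicotinic receptors built from the products of CHRNA3, CHRNB4 and CHRNA5. H3K4me3 marks promoters, H3K27ac active elements, H3K4me1 and H3K4me2 enhancers and promoter flanks, and H3K27me3 regions held by Polycomb repressors. A promoter with both H3K4me3 and H3K27me3 is called bivalent, a state known from developmental genes. Peak lists from a mixed population cannot show whether both marks lay on the same molecules.

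Promoter sequences of 4 genes are shown because the results turn on them. CHRNA3 (chr15:78620947-78621246, minus strand) had an active promoter throughout. GRM3 (chr7:86643659-86643958, plus strand) and GRIN3B (chr19:1000169-1000468, plus strand) had H3K4me3 peaks in DMSO libraries only. HTR3B (chr11:113904546-113904845, plus strand) had no H3K4me3 peak in any library and was chosen as a contrast after its values were seen. Each runs 5′ to 3′ from 250 bases before to 50 after the RefSeq start site (GRCh38.p14), and capitals mark each CpG dinucleotide.
CHRNA3: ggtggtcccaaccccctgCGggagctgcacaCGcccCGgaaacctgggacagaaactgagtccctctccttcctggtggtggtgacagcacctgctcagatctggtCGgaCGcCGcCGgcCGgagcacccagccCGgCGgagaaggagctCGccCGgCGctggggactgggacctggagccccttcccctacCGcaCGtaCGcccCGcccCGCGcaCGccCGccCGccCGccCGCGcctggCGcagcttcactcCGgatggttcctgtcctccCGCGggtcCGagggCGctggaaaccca
GRM3: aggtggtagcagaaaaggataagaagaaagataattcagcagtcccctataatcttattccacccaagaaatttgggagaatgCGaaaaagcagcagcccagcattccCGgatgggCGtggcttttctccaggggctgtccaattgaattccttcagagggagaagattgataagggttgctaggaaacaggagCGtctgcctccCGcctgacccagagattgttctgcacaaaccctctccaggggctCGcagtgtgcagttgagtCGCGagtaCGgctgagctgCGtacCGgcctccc
GRIN3B: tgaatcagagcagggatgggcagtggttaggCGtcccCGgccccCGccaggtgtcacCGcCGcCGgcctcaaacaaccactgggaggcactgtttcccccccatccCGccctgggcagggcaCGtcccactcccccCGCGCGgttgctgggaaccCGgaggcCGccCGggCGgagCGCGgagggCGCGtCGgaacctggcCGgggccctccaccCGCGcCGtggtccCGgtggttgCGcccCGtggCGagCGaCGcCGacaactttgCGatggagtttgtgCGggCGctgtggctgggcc
HTR3B: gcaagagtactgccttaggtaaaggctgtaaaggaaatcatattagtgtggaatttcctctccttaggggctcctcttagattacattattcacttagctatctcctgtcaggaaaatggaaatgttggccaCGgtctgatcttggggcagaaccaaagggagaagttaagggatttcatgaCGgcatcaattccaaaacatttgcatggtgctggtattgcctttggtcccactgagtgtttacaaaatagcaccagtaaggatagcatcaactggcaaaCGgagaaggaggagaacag
These 300 bases held 31 CpG in CHRNA3, 34 in GRIN3B, 11 in GRM3 and 3 in HTR3B.

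Peaks were called at an effective depth of 71.9 to 81.1 M reads for DMSO and 57.0 to 63.4 M reads for doxycycline (15 libraries each). Depth and treatment therefore cannot be told apart. The H3K27me3 libraries were also of unlike kinds. The fragment length estimated by the peak caller was 256 to 280 bp in DMSO replicate 1 and doxycycline replicates 1 and 2, and 105 to 112 bp in DMSO replicates 2 and 3 and doxycycline replicate 3. At the promoter of RUNX1T1 itself, all 4 marks other than H3K27me3 had peaks in every library of both treatments, which does not check the knockdown of its RNA. All 9 sympathoadrenal marker genes examined (among them HAND2, GATA3 and DBH) had active promoters in both treatments, and 2 of 10 genes of other cell types did (GFAP and PDGFRB).

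Receptor genes carried H3K27me3 at their promoters more often, and H3K27ac less often, than protein-coding genes at large. A gene was counted for a mark where a peak lay within 1 kb of any of its annotated start sites in all 3 libraries of a treatment. For H3K27me3 this held for 46 of the 98 receptor genes in DMSO (46.9%) and 47 in doxycycline (48.0%), against 20.9% and 23.2% of all protein-coding genes. With H3K27ac it held for 36 (36.7%) and 35 (35.7%), against 65.8% and 65.2%. The share with H3K4me3 was 61.2% in DMSO and 56.1% in doxycycline, against 72.6% and 72.3% of all genes. H3K4me2 marked 58.2% and 64.3%, against 72.3% and 73.8%, and H3K4me1 marked 66.3% and 70.4%, against 66.3% and 66.1%. These counts describe a chosen family and carry no p-value.

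H3K27me3 peaks had low −log10 q-values, and their number depended on the strength asked for. Within their own lists they ranked high by q-value. Receptor promoters with H3K27me3 and H3K4me3 had median percentiles of 97.8, 96.7 and 97.1 in DMSO and 97.1, 95.9 and 93.9 in doxycycline. Those with H3K27me3 without H3K4me3 had 97.2, 96.0 and 92.8, then 96.3, 95.5 and 88.9. Where only peaks with a −log10 q-value of 3 or more were kept, H3K27me3 marked 27 receptor genes in DMSO (27.6%, against 8.43% of all genes) and 24 in doxycycline (24.5%, against 10.3%). At a −log10 q-value of 10 or more it marked none in either treatment, and H3K27ac still marked 19 in each.

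Single libraries varied little in H3K4me3 and H3K27ac. H3K4me3 peaks were found at 64, 63 and 62 receptor gene promoters in the 3 DMSO libraries and at 61, 58 and 56 in the 3 doxycycline libraries. The ranges did not overlap, and the doxycycline library had fewer in each of the 3 numbered pairs. Calling depth was lower in doxycycline, and the same count was not made over all genes. The whole H3K4me3 lists held 26514, 26332 and 24274 peaks in DMSO and 26592, 25409 and 23801 in doxycycline. For H3K27ac the receptor gene promoters with a peak numbered 45, 39 and 38 in DMSO and 43, 39 and 36 in doxycycline, and the ranges overlapped. H3K27me3 peaks lay at 52, 49 and 51 promoters in DMSO and at 60, 52 and 53 in doxycycline. Among the 3 libraries of long fragment estimate, DMSO replicate 1 had 52 and the doxycycline libraries 60 and 52. Among those of short estimate, the DMSO libraries had 49 and 51 and doxycycline replicate 3 had 53. In H3K4me1 the counts were 81, 71 and 71 against 81, 71 and 74, and in H3K4me2 76, 67 and 61 against 82, 63 and 71.

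Each promoter was then put in a class by the marks found in all 3 libraries of a treatment. Each mark was scored over all annotated starts of a gene. The marks of a class, also of the bivalent one, may therefore lie at different starts of that gene. At 8 receptor genes a window overlapped that of another protein-coding gene, so a mark there may belong to either gene. At 4 of these the other was a receptor gene too (GABRA4 with GABRB1, GABRA6 with GABRB2), so the same peak could count for both. The others were ADRB3, CHRNE, GLRA3 and GRIK5. In DMSO, 28 receptor genes had H3K4me3 and H3K27ac without H3K27me3, termed active here. This was 28.6% of the family, against 59.4% of all protein-coding genes. Bivalent promoters numbered 27 (27.6%, against 11.1%), and promoters with H3K27me3 but not H3K4me3 numbered 19 (19.4%, against 9.77%). H3K4me3 alone of these 3 marks was found at 5, other marks at 10 and none of the 5 marks at 9.

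Glutamate-gated AMPA and kainate receptors had the largest shares of active promoters among the 11 classes. All 4 AMPA subunit genes (GRIA1, GRIA2, GRIA3 and GRIA4), which form the main fast excitatory channel, were active in both treatments. So were 4 of 5 kainate subunit genes (GRIK2, GRIK3, GRIK4 and GRIK5), the exception being GRIK1, which had H3K27me3 without H3K4me3. The promoter window of GRIK5 overlapped that of ZNF574, so its marks may belong to either gene. Of the 7 NMDA subunit genes, GRIN2D was active. GRIN1, which encodes the subunit every NMDA receptor needs, was bivalent, with peaks of all 5 marks in all 6 libraries, as were GRIN2C and GRIN3A without H3K27ac. GRIN2A and GRIN2B, the main partners of GRIN1 in the forebrain, had H3K27me3 without H3K4me3. Among metabotropic glutamate receptors GRM2, GRM4 and GRM8, which inhibit adenylyl cyclase, were active, and the Gq-coupled GRM5 was bivalent in both treatments.

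GABA-A receptors, the chloride channels of fast inhibition, showed another distribution, with 1 active gene of 19. In DMSO 6 were bivalent (GABRA2, GABRA5, GABRB1, GABRD, GABRE and GABRG3), and 6 others had H3K27me3 without H3K4me3. The ρ subunit genes GABRR1, GABRR2 and GABRR3, known mainly from the retina, fell among genes with none of the 5 marks in all libraries. None of the 3 GLRA genes, which encode glycine receptor α subunits, was active. GLRA1 and GLRA3 had H3K4me3 alone of H3K4me3, H3K27ac and H3K27me3, and GLRA2 had none. GLRB, the β subunit gene, which the symbols counted here leave out, was active in both treatments.

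For acetylcholine, 5 of 16 nicotinic genes were active in both treatments, namely CHRNA3, CHRNA5, CHRNB4, CHRNA7 and CHRNB2. CHRNA4 and CHRNB1 were bivalent. No nicotinic gene had H3K27me3 without H3K4me3. CHRNA1, CHRNA2, CHRNA9, CHRND and CHRNE carried other marks, and CHRNA6, CHRNA10, CHRNB3 and CHRNG had none of the 5 in all libraries. CHRNA10 and CHRNB3 had no promoter peak in any of the 30 lists. Of the muscarinic receptors, CHRM1 and CHRM3 were active and CHRM2 and CHRM4 bivalent.

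Among receptors for the amines, active promoters were found at HTR1E, HTR3A, HTR6, DRD2, ADRA2A and ADRA2C in both treatments, and at ADRA1B in DMSO. ADRA2A and ADRA2C encode the α2 autoreceptors of noradrenergic cells. Bivalent serotonin receptor genes numbered 6 of 17 (HTR1B, HTR1D, HTR1F, HTR2C, HTR4 and HTR7), and 5 had H3K27me3 without H3K4me3. DRD1, DRD4 and DRD5 also had H3K27me3 without H3K4me3, and no mark was found at DRD3 in all libraries of a treatment.

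**Figure D1:**
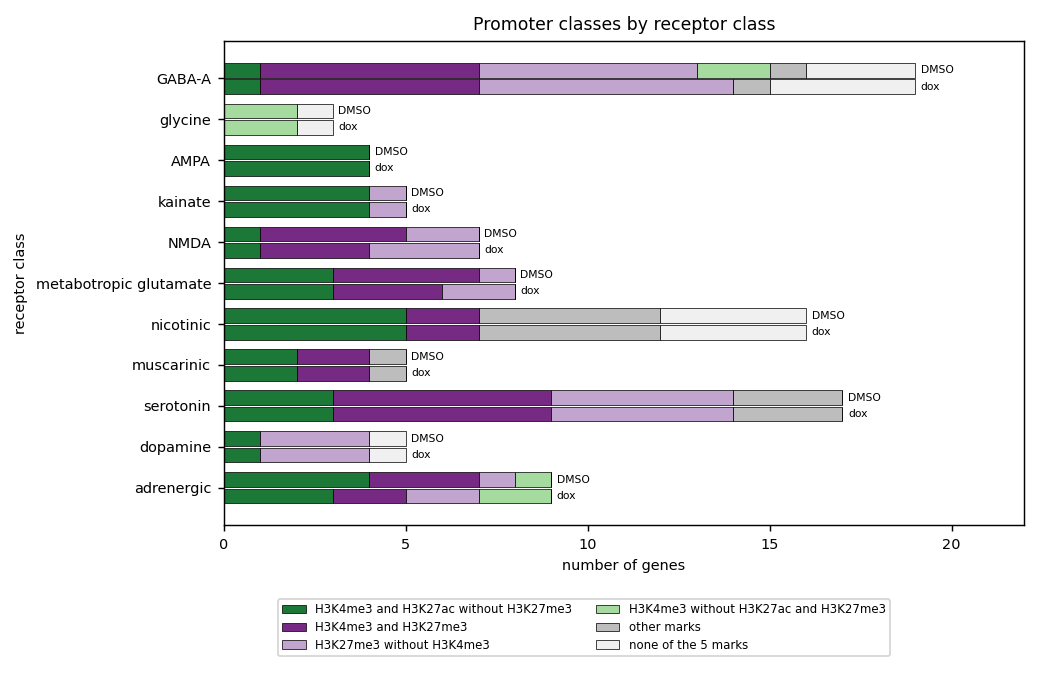
Number of receptor genes (x axis) in each promoter class, for each receptor class (y axis) and treatment, with DMSO above doxycycline. AMPA genes were all active in both treatments (4 of 4), whereas 1 of 19 GABA-A genes was.

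With a gap of at most 500 kb, 31 receptor genes lay in 11 clusters, so they are not independent of each other. In DMSO all genes of a cluster were in 1 class in 5 clusters, and in 2 classes in 6. HTR3C, HTR3D and HTR3E (chr3:184031544-184106995) all had H3K27me3 without H3K4me3. CHRNA5, CHRNA3 and CHRNB4 (chr15:78565520-78727754) were all active. In a split cluster HTR3B had other marks beside the active HTR3A and DRD2 on chromosome 11.

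Active and bivalent promoters also differed in the size of their H3K4me3 peaks, a measure that did not define the classes. The median fold enrichment over input, as the authors' peak caller gave it, was 30.9, 40.7 and 18.6 in the DMSO libraries for the 28 active promoters and 15.2, 14.7 and 7.84 for the 27 bivalent ones. Median widths were 3.29, 3.09 and 2.67 kb against 0.994, 0.951 and 0.705 kb. In doxycycline the folds were 32.7, 32.6 and 19.6 against 16.7, 12.6 and 11.3. In each of the 6 libraries the active promoters had the higher median.

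CpG content also differed between the classes. The ratio of observed to expected CpG in the 300 bases around the GENCODE canonical start had a median of 0.703 in active, 0.758 in bivalent and 0.595 in H3K27me3-only receptor genes. It was 0.204 where other marks were found and 0.268 where none were. In all protein-coding genes H3K27me3-only promoters had a median of 0.333, and 25.7% of them reached a ratio of 0.6, whereas 47.4% of the 19 receptor genes did. In the other direction, the median of all genes was 0.863 for active and 0.797 for bivalent promoters, and a ratio of 0.6 was reached by 88.5 and 80.4% of these, against 64.3 and 66.7% of the receptor genes. Over the whole family the median was 0.613, against 0.776 in all protein-coding genes.

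**Figure D2:**
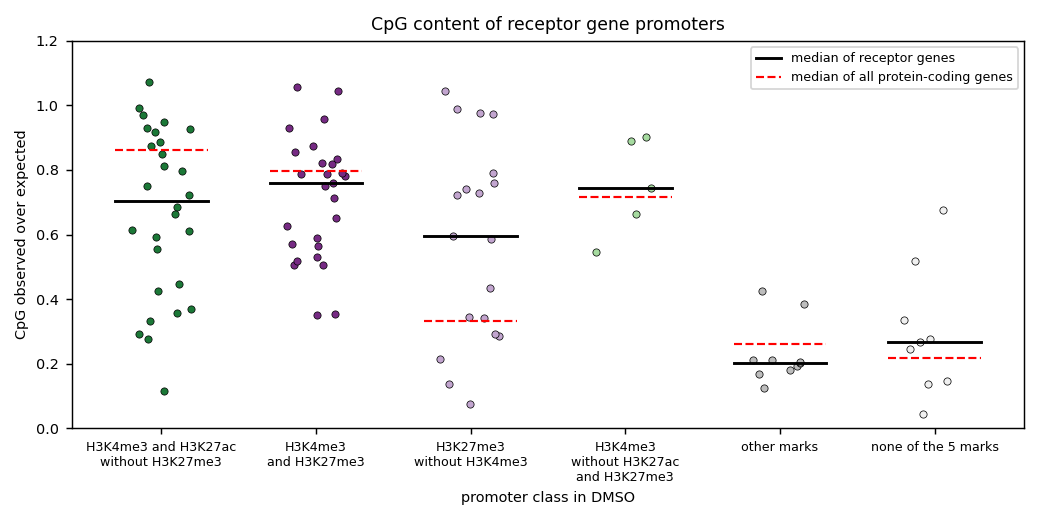
Ratio of observed to expected CpG (y axis) of each receptor gene promoter, by promoter class in DMSO (x axis), with the median of receptor genes (solid) and of all protein-coding genes (dashed). Receptor genes with H3K27me3 and no H3K4me3 had a median of 0.595, above the 0.333 of all genes of that class, while the active ones (0.703) lay below all active genes (0.863).

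Short motifs were read on both strands of the same windows, and none of the 3 overlaps another. The E-box CATCTG was found in 14 of 98 receptor gene promoters (14.3%) and in 10.9% of all. TTCAGCACC and GGACAGCGC together make up the element bound by the neuronal silencer REST. The first was found in GRIA2 and GRM2 (2.04%, against 0.371% of all promoters), both active in these cells, and the second in HTR5A (1.02%, against 0.776%). A match of letters is no evidence of binding.

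**Figure D3:**
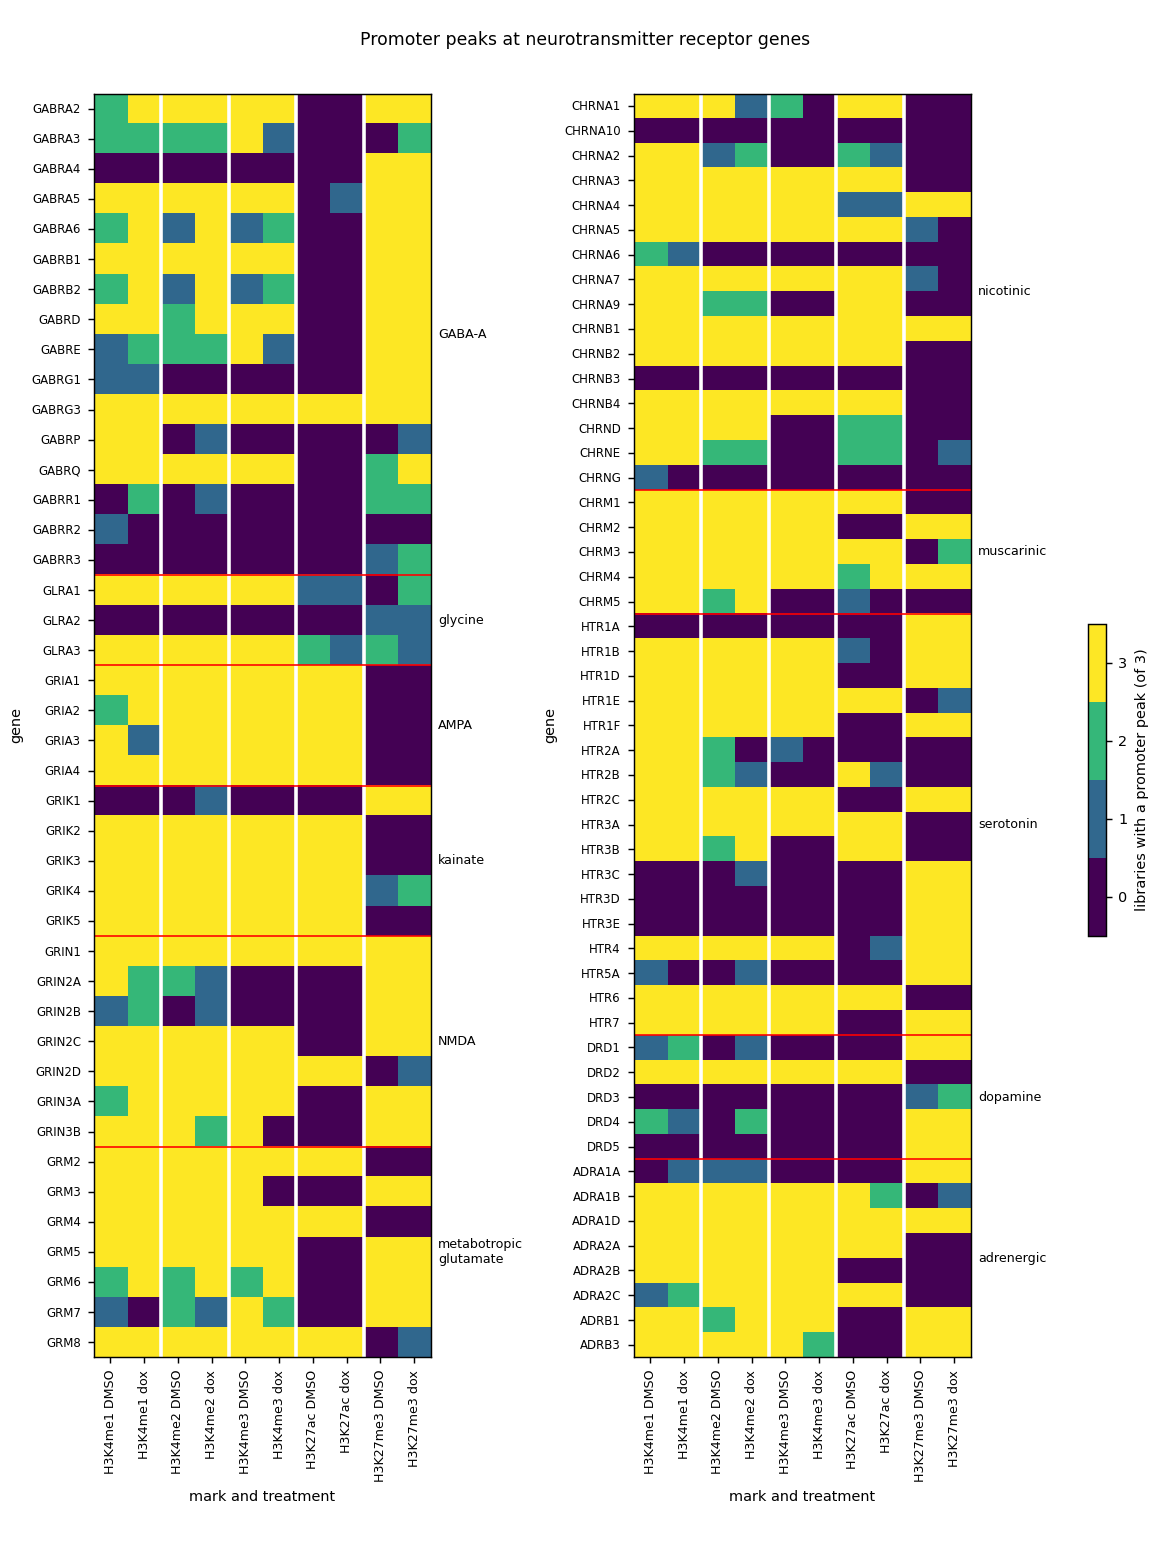
Number of libraries (0 to 3, color) with a peak within 1 kb of a start site, for 93 of the 98 receptor genes (y axis) and each mark and treatment (x axis), with red lines between receptor classes. Most rows look alike in DMSO and doxycycline, and 89 of the 98 genes kept their promoter class. The share of all protein-coding genes that did so was not counted.

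Doxycycline was set against DMSO to ask whether receptor gene promoters differed when RUNX1T1 was silenced. Of the 98 genes, 89 were in the same class in both treatments. The others differed by the presence of a mark in 1 to 3 libraries. The active class went from 28 to 27 genes, the bivalent class from 27 to 24, and the class with H3K27me3 without H3K4me3 from 19 to 23. Among all protein-coding genes the same 3 classes went from 11864 to 11618, from 2219 to 2413 and from 1951 to 2213. These totals do not show how many of all genes kept their class, which was not counted.

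A promoter was called separating where all 3 libraries of one treatment had a peak and none of the other did. This was the case for H3K4me3 at GRIN3B and GRM3, both lower in doxycycline, or 2.04% of the family, where 0.0751% of all protein-coding genes (15 of 19970) were called. No receptor gene separated with H3K4me3 higher in doxycycline (0.0551% of all genes). None separated in H3K4me1 (0.19% lower and 0.125% higher among all genes), H3K4me2 (0% and 0.03%), H3K27ac (0.22% and 0.11%) or H3K27me3 (0% and 0.19%). A presence call in 3 against 3 libraries cannot reach an exact permutation p below 0.1.

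GRIN3B encodes a glycine-binding NMDA subunit. Its H3K4me3 peak had a fold enrichment of 6.78, 6.61 and 3.39 in DMSO, and no peak was called in the 3 doxycycline libraries. Its H3K27me3 peak was found in all 6 libraries, at 5.42, 4.59 and 3.46 in DMSO and 5.38, 4.64 and 3.42 in doxycycline. GRM3 encodes a Gi-coupled glutamate receptor. H3K4me3 reached 3.71, 3.91 and 3.54 there in DMSO with no peak in doxycycline, and H3K27me3 reached 4.41, 4.17 and 3.51 in DMSO and 3.37, 3.84 and 3.19 in doxycycline. Both genes thus passed from the bivalent class to that with H3K27me3 without H3K4me3. These H3K4me3 peaks were weak. They stood at the 6.20 to 29.9 percentile of their lists by q-value at GRIN3B and at 5.54 to 12.1 at GRM3, and the depth was lower in doxycycline. With lists cut to equal length GRM3 no longer separated, with an overlap of at least 500 bp GRIN3B did not, and at a −log10 q-value of 10 or more neither did.

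At the other genes that changed class, the treatments differed by 1 or 2 libraries in each mark. H3K4me3 went from 3 to 1 of 3 libraries at GABRA3 and GABRE and from 3 to 2 at GRM7 and at ADRB3, the β3 adrenergic receptor. It went from 2 to 3 at GRM6, a receptor of retinal bipolar cells. H3K27ac went from 3 to 2 at ADRA1B. H3K27me3 went from 2 to 3 at GABRQ. Over all 98 genes, H3K4me3 was found in fewer doxycycline than DMSO libraries at 9 genes and in more at 3. The counts of fewer and more were 6 and 3 for H3K27ac, 9 and 12 for H3K4me1, and 6 and 17 for H3K4me2. H3K27me3 was found in fewer at 3 and in more at 13, in libraries whose fragment estimates were uneven between treatments. The same counts were not made over all protein-coding genes.

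Among the ganglionic nicotinic genes, CHRNA3 and CHRNB4 had H3K27ac promoter peaks above the median of the active receptor promoters in all 6 libraries. That median was 6.42, 5.95 and 4.20 in DMSO and 8.04, 7.40 and 4.87 in doxycycline. At CHRNA3 the H3K27ac fold enrichment was 10.9, 10.4 and 8.95 in DMSO and 14.1, 13.1 and 10.8 in doxycycline. CHRNB4 reached 14.3, 13.3 and 8.26 in DMSO and 17.4, 12.4 and 10.1 in doxycycline, and CHRNA5, which stood near the median, 6.48, 6.43 and 4.83 and then 8.04, 5.32 and 5.45. The ranges of the treatments overlapped at all 3 genes. CHRNA7, the subunit of the homomeric α7 receptor, reached 7.58, 6.62 and 5.17 in DMSO and 11.0, 8.52 and 6.83 in doxycycline. Part of CHRNA7 has a near-identical copy in the fusion gene CHRFAM7A, so its reads are less certain. At CHRNB2 the values were 5.87, 5.36 and 3.74, then 7.44, 8.74 and 4.47. Fold enrichment depends on depth and input, so these values are not tested between treatments.

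Gene bodies, defined as the annotated span without the 1 kb around each start, were compared by the share of their length that peaks covered in each library. Receptor genes are long, with a median span of 53.3 kb against 27.5 kb for all protein-coding genes. H3K27me3 covered on average 21.0, 13.3 and 11.6% of the receptor gene bodies in DMSO and 22.4, 19.8 and 12.3% in doxycycline, where the means over all genes were 14.9, 7.93 and 7.19% and then 15.9, 14.1 and 7.68%. The libraries of long fragment estimate had 21.0% in DMSO against 22.4 and 19.8% in doxycycline, and those of short estimate 13.3 and 11.6% against 12.3%. Mean cover by H3K27me3 in DMSO was highest in dopamine receptor genes (46.2%, with a median gene at 64.8% and a median body of 3.15 kb) and lowest in AMPA genes (0.00784%). In serotonin receptor genes the mean was 31.8% but the median gene had 1.47%, below the 13.9% of the NMDA genes, so a few members carried the mean. Muscarinic genes had the highest mean cover by H3K27ac (25.2%) and glycine receptor genes the lowest (0.248%). The muscarinic mean rested largely on CHRM1, whose body was fully covered in all 6 libraries. The median muscarinic gene had 4.61%, and the median NMDA gene 5.84%.

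A gene body was called where the ranges of the treatments did not overlap. Over the 5 marks, 21 pairs of gene and mark were lower in doxycycline and 9 were higher. For H3K27ac 10 were lower (10.2% of the 98, against 7.25% of all genes with a body of at least 500 bp). Higher were 2 (2.04%, against 3.2%). In H3K4me1, 8 were lower (8.16%, against 6.6%) and 2 higher (2.04%, against 2.85%). H3K4me3 gave 3 lower (3.06%, against 4.32%) and 2 higher (2.04%, against 1.82%). In H3K4me2 none was lower (1.24% of all genes) and 1 higher (1.02%, against 1.35%), and in H3K27me3 none was lower (0.0318%) and 2 higher (2.04%, against 0.434%). These shares were near those of all genes in every mark but H3K27me3, where 2 genes are few. They include genes without a peak in the body, which cannot be called. A peak of any library lay in 82 receptor gene bodies for H3K4me1, 68 for H3K4me2 and 44 for H3K4me3. For H3K27ac there were 56 and for H3K27me3 74. The shares thus mix the presence of a mark with its difference between treatments. Each called gene had an exact two-sided permutation p of 0.1, the smallest that 3 against 3 libraries allow. After Benjamini-Hochberg adjustment over all genes with a body peak of the mark, the lowest exact permutation p of a receptor gene was 0.623, in H3K27ac. None passed 0.05 after adjustment. With replicate numbers as a block, sign flips over the 3 pairs gave p = 0.25 for each (exact, the smallest possible).

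Counted by numbered pairs, 53 pairs of gene and mark were lower and 62 higher in doxycycline in all 3. In H3K4me1 these were 27 lower (27.6%, against 22.3% of all genes) and 11 higher (11.2%, against 9.07%). H3K4me2 gave 2 lower (2.04%, against 3.83%) and 10 higher (10.2%, against 11.9%), and H3K4me3 gave 10 lower (10.2%, against 13.4%) and 8 higher (8.16%, against 6.19%). For H3K27ac the counts were 14 lower (14.3%, against 13.3%) and 8 higher (8.16%, against 9.02%). In H3K27me3 none was lower (0.222% of all genes) and 25 were higher (25.5%, against 9.32%). A body without a peak in any library cannot move, so these shares also depend on how many genes carry the mark. H3K27me3 peaks lay in the bodies of 74 receptor genes, while the median cover over all genes was 0% in every library. The second H3K27me3 pair set a DMSO library of short fragment estimate (112 bp) against a doxycycline library of long estimate (280 bp), so treatment and library kind cannot be told apart in it.

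CHRNA3 was the receptor gene called in most marks. H3K27ac covered 71.4, 57.6 and 54.0% of its body in DMSO and 73.9, 82.8 and 71.7% in doxycycline, a difference of 15.1 percentage points between means (61.0 ± 9.18 and 76.1 ± 5.88%, SD, n = 3; exact permutation p = 0.1, adjusted 0.623). H3K4me3 covered 7.15, 8.81 and 3.50% in DMSO and 28.7, 25.2 and 12.6% in doxycycline. For H3K4me2 the cover was 32.7, 9.36 and 7.27% in DMSO and 46.9, 33.2 and 38.8% in doxycycline. Every doxycycline library was above every DMSO library in these 3 marks, by little in H3K27ac. The regions that differed in H3K4me2 and H3K4me3 lay partly in the 3′ part of the gene, about 21 kb from the start. There H3K4me2 (chr15:78597213-78602930, hg38) was found in 1 DMSO and 3 doxycycline libraries, as was H3K4me3 (chr15:78598480-78601867). The 3′ end of CHRNA3 overlaps that of CHRNA5, which is read from the other strand. The bodies of CHRNA5 and CHRNB4 were not called in any mark.

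**Figure D4:**
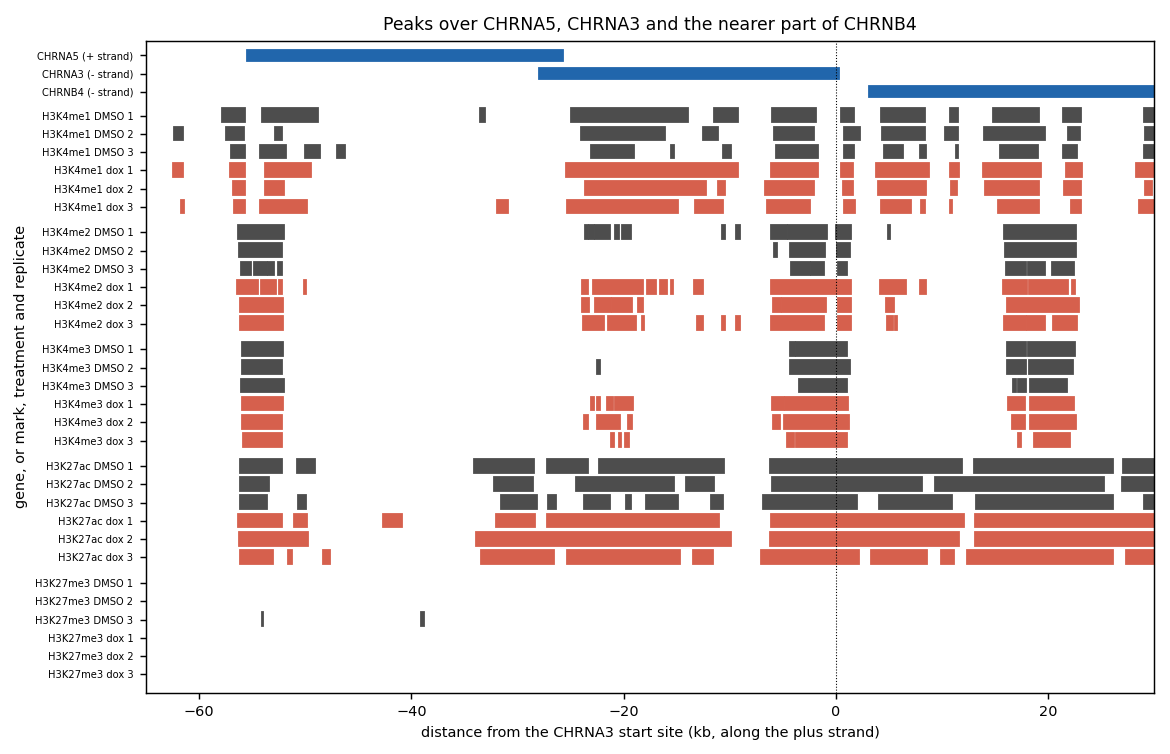
Peaks of each library (rows, DMSO grey and doxycycline red) over CHRNA5, CHRNA3 and the nearer part of CHRNB4, against the distance from the CHRNA3 start in kb (x axis, dotted line at 0). Promoter peaks look alike between treatments, while H3K4me3 about 21 kb to the left was found in 1 DMSO and 3 doxycycline libraries.

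HTR2A, the Gq-coupled receptor bound by classical hallucinogens, had the largest difference in H3K27ac among receptor genes called lower. Its body was covered for 14.2, 11.1 and 10.9% in DMSO and for 2.97, 1.64 and 1.94% in doxycycline, a difference of -9.89 percentage points. An intronic peak 36.1 kb from the start (chr13:46859395-46862591) was present in all 3 DMSO libraries, with a fold enrichment of up to 3.40, and in no doxycycline library. H3K4me1 over the body was 25.9, 22.7 and 29.3% in DMSO and 19.7, 10.5 and 15.1% in doxycycline. The DMSO values lay above all doxycycline values in both marks.

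CHRM3, a Gq-coupled muscarinic receptor with an active promoter, had 20.7, 14.1 and 21.5% of its body covered by H3K27ac in DMSO and 10.2, 10.6 and 10.8% in doxycycline. Its body of 515 kb held 76 H3K27ac regions, of which 10 were found in all 6 libraries and 1 in all DMSO and no doxycycline libraries. CHRNA6, a nicotinic subunit of dopaminergic neurons, had 3.72, 3.30 and 4.96% in DMSO and no H3K27ac peak in doxycycline. All of this cover was 1 intronic peak 21.7 kb from the start, with a fold enrichment of up to 3.31.

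In other genes called lower in H3K27ac the difference was smaller. GABRR2, the ρ2 subunit, went from 5.17, 5.83 and 3.49% to 1.30, 2.07 and 0%, with an intronic peak (chr6:89271822-89274550) found in 3 DMSO and no doxycycline libraries. GRIK2, a kainate subunit gene of over 1 Mb, had 2 such intronic peaks (chr6:101416139-101418359 and chr6:101444002-101446097), 23.5 and 51.3 kb from its start. ADRA1B, the α1B adrenergic receptor, had 1 (chr5:159938354-159939885). HTR3B, CHRNA1 and GRM8 were also lower, with no region found in all libraries of DMSO and none of doxycycline. HTR4, a Gs-coupled serotonin receptor, had no H3K27ac in DMSO and 0.602, 0.482 and 0.966% in doxycycline. An intronic peak 180 kb from its start (chr5:148473658-148475005) was found in all 3 doxycycline libraries, and replicate 3 held a further region 18.5 kb from the start.

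H3K4me1 and H3K27ac were both lower over the bodies of HTR3B, HTR2A and GABRR2. At HTR3B, an HTR3 channel subunit, it went from 23.0, 20.5 and 20.9% to 17.2, 12.9 and 9.75%, and at GABRR2 from 16.9, 11.1 and 12.4% to 9.63, 7.95 and 5.03%. CHRM2, GRIK5, DRD3 and GABRR1 were called lower in H3K4me1 and in no other mark, and CHRM5 was called lower in H3K4me1 and higher in H3K4me3. ADRB1, the β1 adrenergic receptor, had 34.4, 35.3 and 0% in DMSO and 43.7, 35.9 and 41.8% in doxycycline over a body of 2.04 kb, so that the difference rested largely on 1 DMSO library without a peak. The body of GRIK5 holds the start of ZNF574, that of CHRM5 the start of AVEN and that of GABRA6 the start of GABRB2.

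H3K4me3 in the body of GRIA1 was 0.368, 0.445 and 0.178% in DMSO and 0 in doxycycline. The part seen in all 3 DMSO libraries was an intronic peak 287 kb from the start (chr5:153777426-153778512), with a fold enrichment of up to 5.23. At GABRA6 and GABRB1 the differences were -0.203 and -0.0724 percentage points. CHRM5 was higher by 0.103 percentage points, in a body that holds the start of AVEN.

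H3K27me3 was higher in the bodies of GRIN2C and GRM4. GRIN2C, the NMDA subunit of the cerebellum, had 15.3, 11.5 and 10.6% in DMSO and 26.6, 21.0 and 20.7% in doxycycline. Within libraries of long fragment estimate these were 15.3% against 26.6 and 21.0%, and within those of short estimate 11.5 and 10.6% against 20.7%. A region over an exon (chr17:74843103-74844470) was found in no DMSO and 3 doxycycline libraries. GRM4, whose promoter was active, had no H3K27me3 in DMSO and 0.904, 0.355 and 0.428% in doxycycline, at an intronic region 1.53 kb from its canonical start (chr6:34144025-34145083). These peaks had a fold enrichment of at most 2.84 and 2.76.

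**Figure D5:**
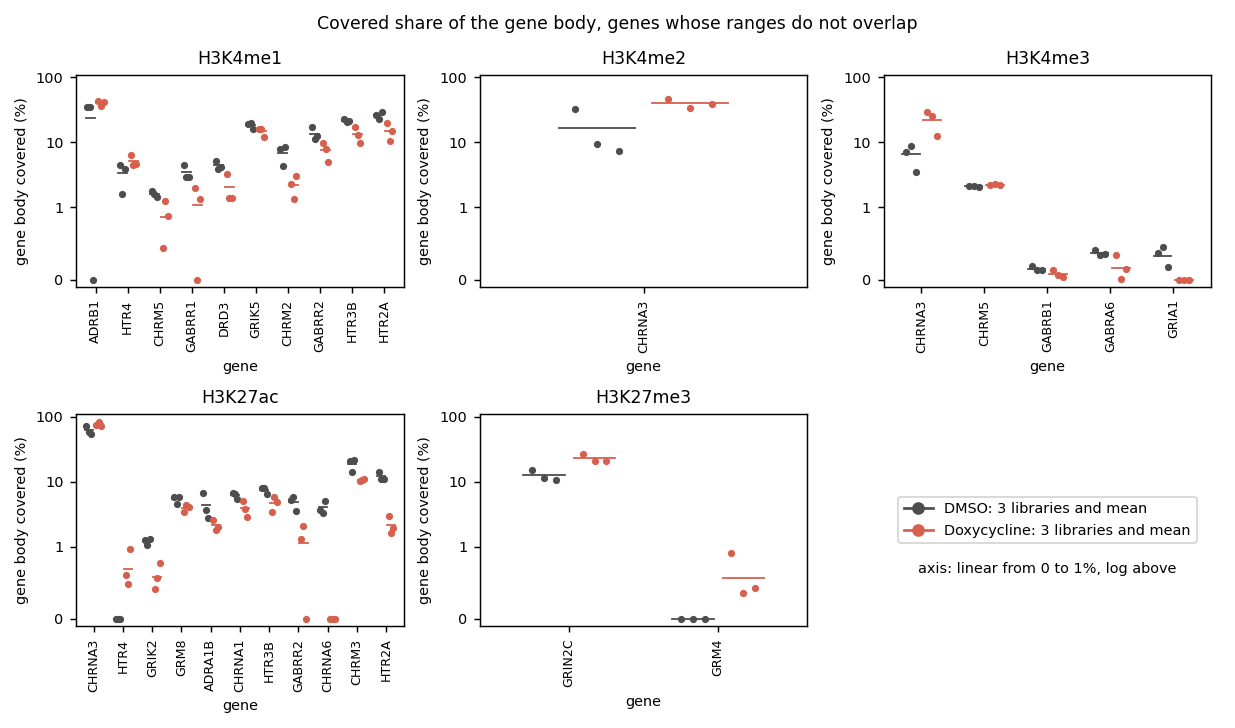
Share of the gene body covered by peaks (y axis, linear to 1% and logarithmic above) in each of the 3 DMSO (grey) and 3 doxycycline (red) libraries, with their means, for receptor genes named as called in each mark (x axis). CHRNA3 lies higher in doxycycline in 3 marks, and HTR2A lies lower in H3K27ac and H3K4me1.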

How the data were processed

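ChIP-seq peak lists of 30 libraries from 34 samples were analysed. The other 4 samples are inputs, used through the calls only. The authors aligned reads to hg38 with Bowtie2 and kept mapping quality 30 or more. They called peaks per library with MACS2 2.1.1.20160309, per the file headers in broad mode at q 0.05 (H3K4me1, H3K27ac, H3K27me3; 18 lists) or narrow mode at p 1e-05 (H3K4me2, H3K4me3; 12 lists), where the methods state q 0.05. Identical input read totals in the file headers point to 1 input serving replicates 1 and 3 of a treatment. Pileup, as deposited, is a coverage signal, fold enrichment is a ratio to input by the authors' caller, and strength is deposited as −log10 of the p-value and of the q-value. All 4 depend on depth. Libraries were compared by peak presence and by the share of the gene body covered. Both come from the same calls and depend on depth too. No read counts per region were used.

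Peaks were intersected with GENCODE release 44 genes in python 3.11.15 (numpy 2.4.6, pandas 2.3.3, scipy 1.17.1). Functions were checked against bedtools 2.31.1 and tested on simulated data. The promoter was 1 kb either side of every start, and bodies needed at least 500 bp. Differences in body cover were tested by exact two-sided permutation over 20 assignments, with Benjamini-Hochberg adjustment over all genes with a peak. Receptor genes, lists, tests and alternatives were chosen with earlier results of these data known. Genes were named if separating at a promoter, if among the 3 largest differences of a mark and direction, by promoter class, or as ganglionic nicotinic subunits with CHRNA7 and CHRNB2. Further called genes were named after their values were seen. Deviations of same-numbered libraries were positively correlated across genes in every pair for H3K4me1, H3K4me2, H3K4me3 and H3K27ac. The lowest r was 0.185, 0.176, 0.324 and 0.0860 in these marks. In H3K27me3 the lowest r was -0.493. Promoter composition came from hg38 for all 98 genes, and printed sequences from RefSeq, which matched 73. Some genes of the family entered every count but are not reported here by name.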

Additional observations from a re-analysis of the deposited data

How the results depend on the processing

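Peak strength limited the promoter counts most. At a −log10 q-value of 3 or more, H3K4me1 promoters numbered 40 in DMSO and 36 in doxycycline, H3K27me3 promoters 27 and 24, bivalent 17 and 13, H3K27me3-only 10 and 11, H3K4me3-alone 16 and 15, and unmarked 21 and 24, and gene bodies lower in doxycycline numbered 9. At 10 or more, H3K4me1 promoters numbered 2 and 4, H3K27ac 19 and 19, H3K27me3 0 and 0, bivalent 0 and 0, H3K27me3-only 0 and 0, H3K4me3-alone 35 and 34, other marks 4 and 5, and unmarked 40 and 40, with 1 separating promoter (ADRB3) and 4 gene bodies lower and 4 higher. Lists of equal length gave 14 bodies higher, as did the whole annotated span. A promoter of 2.5 kb added 1 promoter higher (GRM4, H3K27me3). An overlap of 500 bp left 1 separating promoter, 15 bivalent promoters in DMSO and 7 with H3K4me3 alone in doxycycline. Asking for 2 of 3 libraries gave 3 and 2 with H3K4me3 alone and 6 unmarked in doxycycline. A difference of at least 2 libraries gave 10 promoters lower and 7 higher.

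Leaving out 1 library, which leaves 2 in a treatment and so eases the call, gave 2 to 6 promoters lower, 0 to 4 higher, 21 to 45 bodies lower and 9 to 50 higher, with 3 to 5 H3K4me3-alone promoters in DMSO and 2 to 5 in doxycycline. The most promoters and bodies lower were reached without doxycycline replicate 1 (6 and 45), the most promoters higher without doxycycline replicate 2 (4) and the most bodies higher without DMSO replicate 1 (50). A call made with 3 libraries cannot be lost by leaving 1 out, so these settings do not test it. With a replicate block, 2 promoters separated lower and 0 higher, and bodies moving one way in all 3 pairs numbered 53 lower and 62 higher, of which H3K27me3 gave 0 and 25 and H3K4me1 27 and 11, against 0.222, 9.32, 22.3 and 9.07% of all genes. Of 330 values for these 30 differences, 313 kept their direction and 13 were 0. The H3K4me1 difference reversed to 0.0989 at CHRM5 and 0.310 at GABRR1 at a −log10 q-value of 3 or more, and to 0.523 at CHRM5 with lists of equal length. H3K27ac at GRM8 reversed to 0.0896 at 10 or more. The cause was not tested. Of the 30 calls, 12 were kept at 3 or more, 6 at 10 or more, 22 with equal lists and 26 over the whole span. Depth differed between treatments throughout, and no read counts were used.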

Other observations

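Partner genes of the receptors were more often active than the receptor genes themselves, whose active share was below that of genes at large. Of all protein-coding genes, 59.4% were active in DMSO and 58.2% in doxycycline. Bivalent promoters made up 11.1 and 12.1% of all genes, and those with H3K27me3 without H3K4me3 9.77 and 11.1%. Of 46 partners, such as scaffolds, auxiliary subunits and desensitizing proteins, 31 had active promoters in DMSO and 32 in doxycycline, 7 were bivalent in each and 5 had H3K27me3 without H3K4me3 in each. Of 27 genes for the synthesis, breakdown and transport of transmitters, 9 were active in each treatment, 8 bivalent and 4 had H3K27me3 without H3K4me3. None of these 73 promoters separated the treatments in any mark. Among all protein-coding genes 0 to 0.22% did so in each mark and direction. The absence of calls in so few genes therefore says little about them.

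Gene bodies of partners whose H3K27ac ranges did not overlap were lower in 7 of 46 genes (15.2%, against 7.25% of all genes) and higher in 3 (6.52%, against 3.2%). GRIP1, a scaffold of AMPA receptors, had 6.26, 4.35 and 5.63% of its body covered in DMSO and 1.25, 1.34 and 1.68% in doxycycline. HOMER1, a scaffold of group I metabotropic glutamate receptors, had 0.773, 0.494 and 1.46% in DMSO and none in doxycycline. In the other direction CACNG4, an auxiliary AMPA subunit, went from 60.7, 61.4 and 46.7% to 83.6, 74.6 and 62.4%, and DLG4, which encodes PSD-95, from 17.2% in each DMSO library to 30.2, 21.9 and 23.5%.

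Among transmitter genes H3K27ac was lower in 3 of 27 (11.1%, against 7.25% of all genes) and higher in none (3.2% of all genes). ABAT, which breaks down GABA, had 23.3, 22.1 and 19.7% in DMSO and 15.2, 9.98 and 7.32% in doxycycline, and its H3K4me1 cover went from 30.9, 32.1 and 31.5% to 21.5, 15.4 and 17.9%. SLC6A5, the neuronal glycine transporter, had 19.7, 9.72 and 12.1% in DMSO and 3.81, 4.16 and 3.33% in doxycycline. H3K4me2 over the short body of SLC18A3, the vesicular acetylcholine transporter, went from 69.4, 19.2 and 2.27% to 100, 75.5 and 78.4%. Each of these differences had the smallest exact permutation p that the design allows, and the lower calling depth in doxycycline cannot be told apart from the treatment.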
